A study of Mus musculus with 16 samples.

Results

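The cell cycle and DNA replication module holds 39 genes picked by name: 12 that act in DNA replication, 22 that act in mitosis and 5 that act at entry into the cycle. All 39 were found by symbol among the 13982 genes of the expression table. A gene was kept where it reached 1 FPKM (fragments mapped to a gene, scaled by transcript length and by all mapped fragments) in at least 4 of the 16 libraries. This left 37 of the 39, within 10846 genes of the table that passed the same minimum and were tested. Bub1, a kinase of the spindle checkpoint, reached 1 FPKM in 3 libraries, and Ccne2, the gene of cyclin E2, in 1 library, and neither was tested.

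The cells are described as from the infarcted cortex of C57BL/6 mice, were stained for CD45 and CD11b for sorting, and carry the label microglia. The groups, of 4 libraries each, are MCAO+AS-exos, MCAO+Ctrl-exos, MCAO and Sham. In MCAO surgery the middle cerebral artery is occluded to model ischaemic stroke, and the Sham mice are labelled untreated. For Sham an infarct is therefore not to be assumed. Recipients in MCAO+AS-exos and MCAO+Ctrl-exos were injected into the tail vein with 150 µg of plasma exosomes (small vesicles shed by cells), repeated every 3 days beginning on the day of surgery. The plasma donors were ApoE KO mice that ate a western diet, given for 12 weeks to establish atherosclerosis, or a normal diet, and the labels do not spell out which exosomes came from which diet. The sources used here give neither the time from surgery to sorting nor the number of mice behind a library. The p-values below therefore measure the spread between libraries, which may be technical.

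A cell that enters the cycle builds D-type cyclins, which with Cdk4 inactivate the retinoblastoma proteins and free the E2F transcription factors. E2F factors turn on genes of the MCM helicase, which unwinds DNA, and of the enzymes that make deoxynucleotides. The genes of mitosis are turned on later, and many are controlled by the MuvB complex, which binds the CHR element, beside NF-Y, which binds CCAAT boxes. At the end of mitosis the anaphase-promoting complex (APC/C), with its activator Cdc20 and the ubiquitin enzymes Ube2c and Ube2s, marks cyclin B for destruction. Microglia of the healthy adult brain are known to divide rarely.

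Promoter sequences are shown because the replication and the mitosis genes are described apart below and are known to be driven through different elements. RefSeq promoter windows on GRCm38.p6, from 250 bases before to 50 bases past an annotated start, were at hand for 30 of the 39 members, in 32 windows. The 6 stretches printed here span 200 bases before to 30 bases past the start and are written 5′ to 3′ on the strand of the gene. Mcm6 (chr1:128359676-128359905, minus strand) and Mcm5 (chr8:75109309-75109538, plus strand) encode subunits of the replicative helicase. Cdk1 (chr10:69352883-69353112, minus strand) encodes the kinase that drives mitosis, and Top2a (chr11:99024160-99024389, minus strand) a topoisomerase that untangles sister chromatids. Ccnb2 (chr9:70421525-70421754, minus strand) encodes cyclin B2, and Cdc20 (chr4:118437314-118437543, minus strand) the APC/C activator. Capitals mark E2F letters (TTTCCCGC, TTTGGCGC, TTTCGCGC or TTTGCCGC), CHR letters (TTTGAA or TTCGAA) and CCAAT, each searched on both strands, so that CCAAT on the other strand reads ATTGG.
Mcm6: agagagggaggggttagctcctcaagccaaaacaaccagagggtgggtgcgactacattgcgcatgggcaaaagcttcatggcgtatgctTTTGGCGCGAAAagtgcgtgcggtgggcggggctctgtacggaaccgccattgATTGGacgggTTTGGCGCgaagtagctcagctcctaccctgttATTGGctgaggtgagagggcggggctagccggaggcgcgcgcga
Mcm5: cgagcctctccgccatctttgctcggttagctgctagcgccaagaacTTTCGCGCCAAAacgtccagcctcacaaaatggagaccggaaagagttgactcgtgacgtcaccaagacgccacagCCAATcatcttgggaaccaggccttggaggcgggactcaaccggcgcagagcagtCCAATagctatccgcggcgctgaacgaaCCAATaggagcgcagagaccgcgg
Cdk1: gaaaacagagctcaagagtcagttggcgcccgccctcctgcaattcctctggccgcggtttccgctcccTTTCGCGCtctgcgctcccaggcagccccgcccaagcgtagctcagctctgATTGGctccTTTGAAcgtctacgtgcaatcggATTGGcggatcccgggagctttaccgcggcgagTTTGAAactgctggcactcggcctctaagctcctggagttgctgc
Top2a: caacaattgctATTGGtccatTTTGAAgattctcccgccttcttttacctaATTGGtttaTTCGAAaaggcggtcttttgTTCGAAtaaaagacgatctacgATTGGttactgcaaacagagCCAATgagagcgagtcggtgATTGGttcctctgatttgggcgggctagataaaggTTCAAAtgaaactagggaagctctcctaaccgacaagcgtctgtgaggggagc
Ccnb2: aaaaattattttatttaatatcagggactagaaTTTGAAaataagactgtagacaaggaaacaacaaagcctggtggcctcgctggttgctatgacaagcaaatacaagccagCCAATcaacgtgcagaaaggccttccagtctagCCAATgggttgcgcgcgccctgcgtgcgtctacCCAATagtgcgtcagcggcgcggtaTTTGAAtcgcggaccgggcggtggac
Cdc20: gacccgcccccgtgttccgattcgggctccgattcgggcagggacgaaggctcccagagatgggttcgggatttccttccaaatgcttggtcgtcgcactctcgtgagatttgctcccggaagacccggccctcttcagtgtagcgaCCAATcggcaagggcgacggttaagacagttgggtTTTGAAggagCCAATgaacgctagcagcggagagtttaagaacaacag

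In Mcm6 and Mcm5 a stretch of capitals holds E2F letters on both strands that overlap each other. E2F letters were found in 4 of 11 windows of replication members (Mcm3, Mcm5, Mcm6 and Mcm7) and in 1 of 19 windows of mitosis members (Cdk1), against 2.26% of 32851 promoter windows of all genes in the RefSeq table. CHR letters were found in 15 of 19 mitosis windows and in 2 of 11 replication windows, against 19.2% of all windows. CCAAT was found in 16 of 19 mitosis windows and 9 of 11 replication windows, against 37.4% of all windows. A CHR together with 2 or more CCAAT boxes stood in 10 of 19 mitosis windows, those of Aurka, Bub1, Ccnb2, Cdc20, Cdk1, Cenpa, Hmgb2, Mki67, Top2a and Ube2c, and in 1 of 11 replication windows, that of Mcm7. The share over all windows was 2.31%. Matches of different motifs shared bases in the Mcm7 window, where CCAAT overlaps E2F letters. These are matches of letters, not sites of binding.

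**Figure D1:**
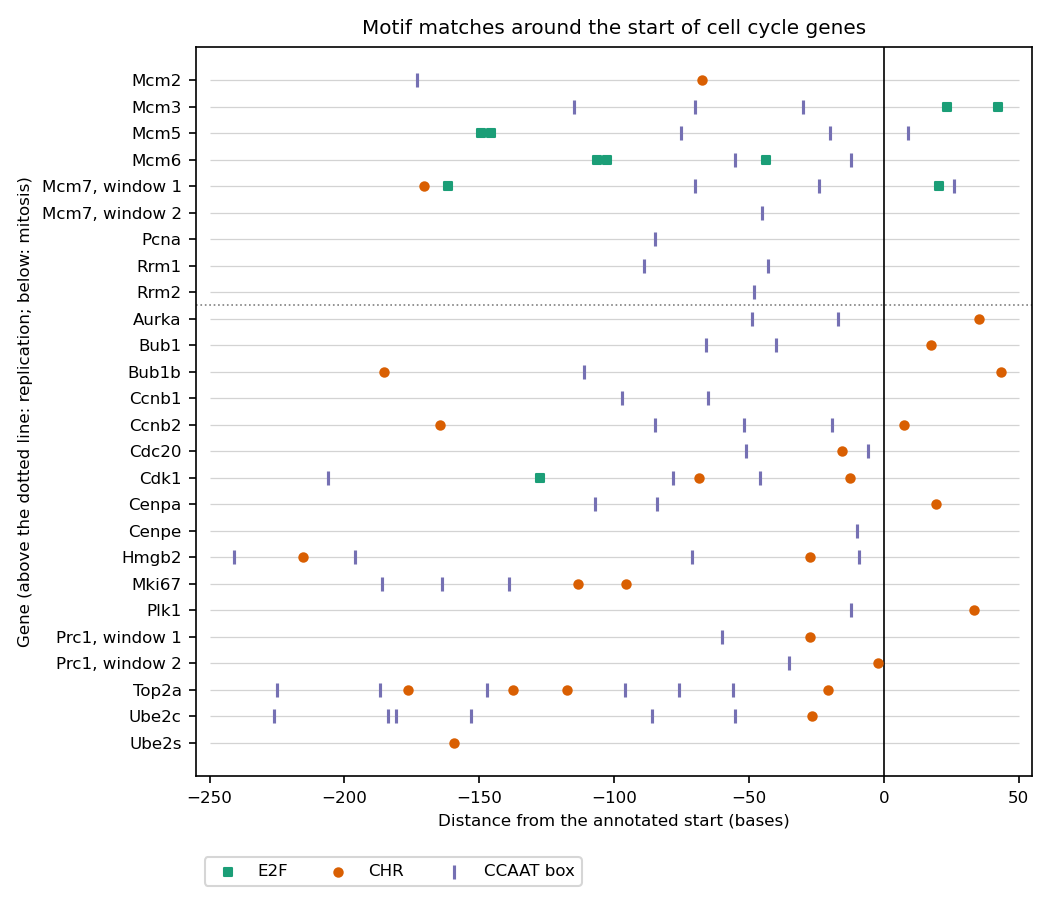
Positions of the letter matches in the 26 windows of replication (9) and mitosis (17) members with at least 1 match, by distance from the annotated start in bases; squares are E2F letters, circles CHR letters and bars CCAAT boxes. Squares stand in 4 replication windows and in that of Cdk1, and circles in 15 mitosis windows.

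Over the 16 libraries the values summed to 758283 to 983648 FPKM, and 8813 to 10003 genes reached 1 FPKM. The table holds no counts, so the depth is unknown. The label was checked against 10 microglia markers (P2ry12, Tmem119, Cx3cr1 and others), which summed to 1260.3 to 1913 FPKM in MCAO+AS-exos, 1319.8 to 1383 FPKM in MCAO+Ctrl-exos and 1164 to 1975 FPKM in MCAO, against 20840.4 to 22941 FPKM in Sham libraries. The 8 monocyte markers summed to 1787 to 5429 FPKM, 1557 to 2749.8 FPKM and 1862 to 2657 FPKM in the same 3 MCAO groups, against 8.46 to 114 FPKM in Sham. The 8 neutrophil markers summed to 3488 to 7839.8 FPKM in MCAO+AS-exos, 1823 to 3633 FPKM in MCAO+Ctrl-exos and 1694 to 9873 FPKM in MCAO, against 76.7 to 144 FPKM in Sham. Of these, Ly6g was listed at 0 in all MCAO and Sham libraries and Retnlg in all Sham libraries. Csf3r stood the other way, at a mean of 76.2 FPKM in MCAO and 94.4 FPKM in Sham. S100a8 averaged 3544 FPKM in MCAO and 2.35 FPKM in Sham. The 6 markers of border macrophages summed to 2676 to 5334 FPKM, 3549 to 4171 FPKM and 1668 to 4213 FPKM, against 2.75 to 57.4 FPKM in Sham. In MCAO most of this sum was Pf4, at a mean of 2582 FPKM, while Lyve1 and Cd163 averaged 5.02 and 5.05 FPKM. Prtn3, of the 8 listed markers of dividing neutrophil precursors the 1 in the table, had 5.25 to 22.5 FPKM in MCAO+AS-exos, 14.4 to 30.7 FPKM in MCAO+Ctrl-exos and 0.27 to 26.3 FPKM in MCAO, against 0 to 0.06 FPKM in Sham. Cd8a, of 8 listed T and NK cell markers the 1 in the table, had 0.12 to 1.03 FPKM, 0.17 to 1.23 FPKM and 0.23 to 2.73 FPKM, against 0 to 1.45 FPKM in Sham. The label thus matched its markers in Sham, while the libraries of the MCAO groups had lower microglia sums and higher sums for other myeloid cells. These markers moved with the surgery, as the cell cycle genes did, and their part in the results below was not tested. In bulk samples, fewer cells of a type and less RNA per cell cannot be told apart.

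**Figure D2:**
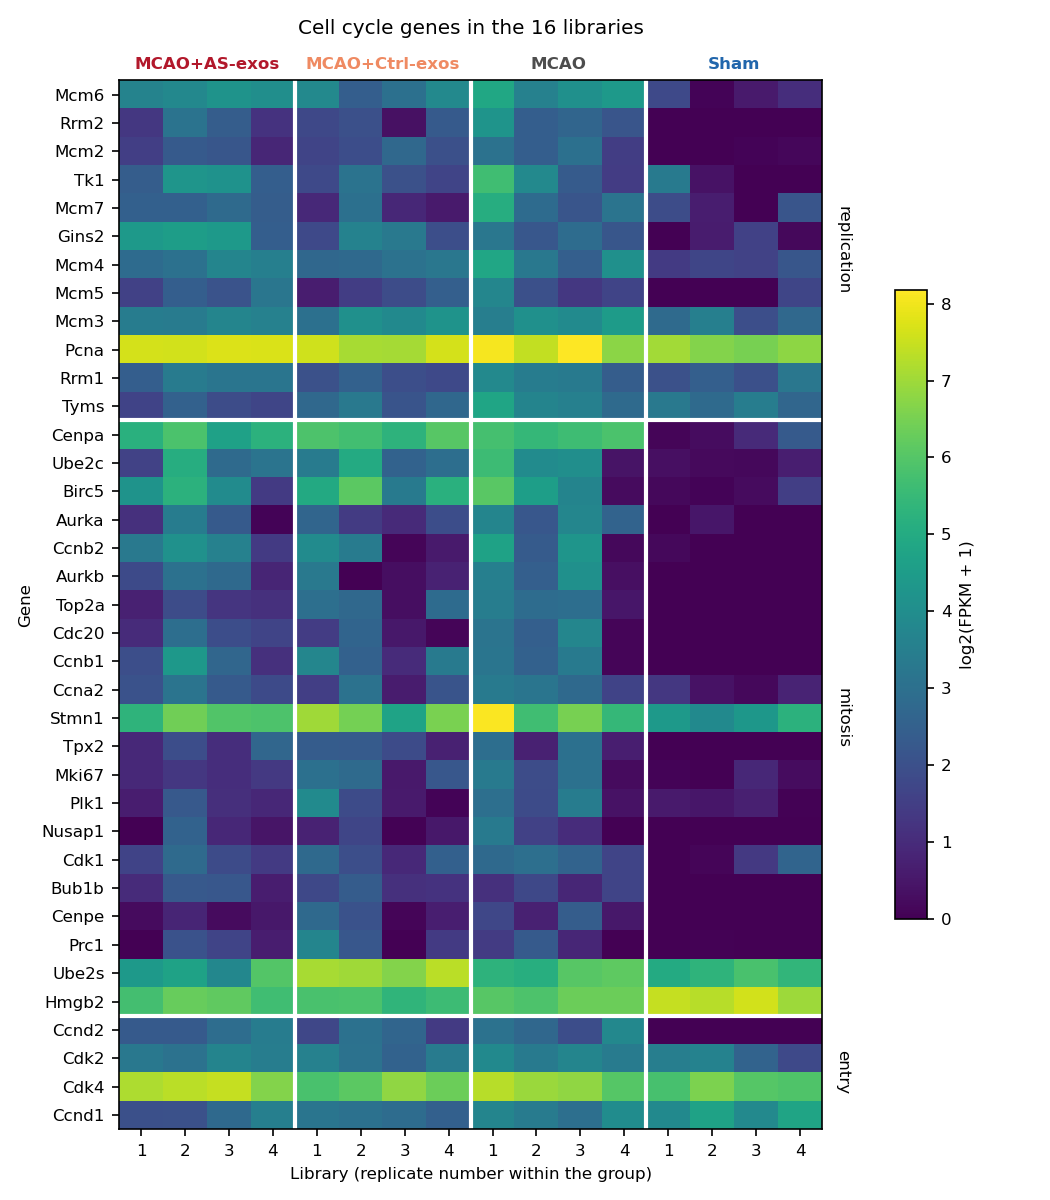
Level of the 37 kept members, as log2(FPKM + 1), in each of the 16 libraries; rows are genes, grouped as replication, mitosis and entry, and columns are libraries by group. Most mitosis genes are dark in the 4 Sham libraries and also in MCAO replicate 4 and MCAO+Ctrl-exos replicate 3.

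The comparison of MCAO with Sham addresses what the surgery changed. Of the 37 tested members, 27 rose in MCAO, 1 fell (Hmgb2) and 9 did not pass, at an adjusted p below 0.05 in limma over all tested genes. Over all 10846 tested genes, 24.5% rose and 14.8% fell. Groups did not overlap, with every MCAO library above every Sham library, for 18 members, against 21.8% of all tested genes, and the opposite held for 1 member, against 12%. The median difference of the members was 1.95 on the log2(FPKM + 1) scale, against 0.25 over all tested genes. On this scale the changes of genes near 0 are understated. In Sham, 17 of the 37 members stayed below 1 FPKM in every library and so passed the minimum through the MCAO groups alone. The minimum thus favoured a rise over Sham, and groups that did not overlap, in these members, so their counts support nothing. The 18 members without overlap were not split by their level in Sham. Of the 20 members with 1 FPKM or more in a Sham library, 13 rose, 1 fell and 6 did not pass, with a median difference of 1.62. The shares over all tested genes also hold genes kept through the MCAO groups alone. No share over all genes with 1 FPKM or more in a Sham library was counted, so these counts have no matching share. Of the 17, 6 were listed at 0 in all 4 Sham libraries and have no fold, and the median of the other 31 members was 1.95. The count of 27 became 17 without MCAO replicate 1 and 31 without MCAO replicate 4. Scaling by quantiles shifted the median over all genes to -0.03 and that of the members to 1.56, and then 19.2% of all genes rose and 20% fell, with 21 members higher and 2 lower.

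Replication genes stood higher in MCAO for 10 of 12 members, with a median difference of 2.0, and none of the 12 fell. Mcm2 and Rrm2 were below 1 FPKM in every Sham library, so their calls are a description, and 8 of the other 10 rose, with a median of 1.85. The MCM genes encode the ring-shaped helicase of the replication fork, and E2F letters stand in the promoter windows of Mcm3, Mcm5, Mcm6 and Mcm7. Mcm6 had 11.5, 13.2, 17.4 and 15.4 FPKM in MCAO+AS-exos and 13.4, 4.48, 7.14 and 13.6 FPKM in MCAO+Ctrl-exos libraries. It had 28.5, 11.1, 16.1 and 20.7 FPKM in MCAO, against 2.52, 0.06, 0.51 and 1.11 FPKM in Sham libraries. No library of the MCAO groups was as low as any Sham library, and Mcm6 rose by 3.36 ± 0.42 (SE) in MCAO against Sham (limma adjusted p = 2.71e-06). Mcm2 had 1.85, 3.96, 3.6 and 0.82 FPKM in MCAO+AS-exos and 2.19, 2.79, 5.78 and 2.98 FPKM in MCAO+Ctrl-exos libraries. It had 7.55, 4.41, 7.05 and 1.81 FPKM in MCAO, against 0, 0, 0.05 and 0.1 FPKM in Sham libraries. Sham was near 0 throughout, and the rise in MCAO was 2.46 ± 0.42 (adjusted p = 0.000127, limma). Mcm4 had 6.21, 7.28, 12.1 and 10.7 FPKM in MCAO+AS-exos and 5.59, 5.97, 7.49 and 8.53 FPKM in MCAO+Ctrl-exos libraries. It had 27.6, 8.64, 4.56 and 16.2 FPKM in MCAO, against 1.63, 2.25, 2.04 and 3.54 FPKM in Sham libraries. MCAO replicate 1 stood highest, the 4 Sham values lowest, and Mcm4 rose by 1.95 ± 0.42 in MCAO (adjusted p = 0.00112, limma). Mcm7 had 4.72, 4.63, 6.03 and 4.29 FPKM in MCAO+AS-exos and 0.92, 7.13, 0.88 and 0.52 FPKM in MCAO+Ctrl-exos libraries. It had 33.4, 6.21, 3.43 and 7.88 FPKM in MCAO, against 2.7, 0.59, 0.02 and 3.42 FPKM in Sham libraries. Its MCAO group held 1 high library, replicate 1, and MCAO+Ctrl-exos overlapped Sham. Mcm7 rose by 2.13 ± 0.62 in MCAO against Sham (adjusted p = 0.0102, limma), and its exons overlap those of Ap4m1 and Cops6, so its reads may be shared. Mcm3 and Mcm5, the other 2 MCM genes listed, rose by 1.23 ± 0.36 and 1.75 ± 0.56, with MCAO and Sham values that overlapped.

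Gins2 encodes a subunit of the GINS complex, which joins the MCM ring to form the working helicase. Gins2 had 19.9, 22.3, 20.1 and 4.48 FPKM in MCAO+AS-exos and 2.47, 11.3, 8.81 and 2.89 FPKM in MCAO+Ctrl-exos libraries. It had 8.46, 3.69, 6.48 and 3.58 FPKM in MCAO, against 0, 0.55, 2 and 0.12 FPKM in Sham libraries. Replicates 1 to 3 of MCAO+AS-exos were above every other library, replicate 4 was not, and Sham was lowest. Gins2 rose by 2.05 ± 0.53 in MCAO against Sham (adjusted p = 0.00474, limma). Pcna, the sliding clamp that holds polymerases on DNA, had the highest level of the replication members. Pcna had 199.8, 194, 213 and 208 FPKM in MCAO+AS-exos and 191, 135, 133 and 201 FPKM in MCAO+Ctrl-exos libraries. It had 266, 172, 288 and 108 FPKM in MCAO, against 129.8, 101, 90.4 and 109 FPKM in Sham libraries. MCAO replicate 4 fell within the Sham range, and the rise in MCAO was 0.86 ± 0.27 (adjusted p = 0.0153, limma).

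Rrm2 encodes the small subunit of ribonucleotide reductase, which makes deoxynucleotides and is built in S phase. Rrm2 had 1.52, 7.67, 4.27 and 1.27 FPKM in MCAO+AS-exos, 2.39, 3.01, 0.29 and 3.97 FPKM in MCAO+Ctrl-exos and 17.6, 4.4, 5.39 and 3.46 FPKM in MCAO libraries. It was listed at 0 in all 4 Sham libraries, so no fold is given (adjusted p = 0.00022 for MCAO against Sham, limma). Rrm1, the large subunit of the same enzyme, averaged 9.17 ± 3.69 FPKM in MCAO and 4.79 ± 2.59 FPKM in Sham (SD, n = 4 each) and did not pass (adjusted p = 0.0996, limma). Tyms encodes thymidylate synthase, which makes thymidylate. Tyms had 2.14, 4.81, 2.71 and 2.26 FPKM in MCAO+AS-exos and 5.71, 8.83, 3.39 and 5.69 FPKM in MCAO+Ctrl-exos libraries. It had 26.7, 11.8, 10.8 and 6.16 FPKM in MCAO, against 8.97, 6.17, 9.94 and 5.51 FPKM in Sham libraries. The 4 MCAO+AS-exos values were below all Sham and all MCAO values, while MCAO overlapped Sham and did not differ past the threshold (0.64 ± 0.40, adjusted p = 0.221, limma). Tk1, which recovers thymidine, rose by 2.40 ± 0.81 in MCAO against Sham (adjusted p = 0.0249, limma), but Sham replicate 1 had 9.11 FPKM and the groups overlapped.

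Mitosis genes rose in MCAO for 16 of 21 tested members, 1 fell, and Ube2s, Plk1, Nusap1 and Prc1 did not pass, with a median difference of 1.97. Of these 21, 14 were below 1 FPKM in every Sham library and passed the minimum through the MCAO groups alone, so the count and the median are a description. Of the other 7, 5 rose (Ccna2, Cdk1, Birc5, Cenpa and Stmn1), Hmgb2 fell and Ube2s did not pass. Cenpa encodes the histone H3 variant that marks centromeres. Cenpa had 35.6, 57.2, 24.4 and 37.3 FPKM in MCAO+AS-exos and 58.2, 51.1, 38 and 64.7 FPKM in MCAO+Ctrl-exos libraries. It had 52.9, 43, 48.9 and 56.8 FPKM in MCAO, against 0.07, 0.21, 0.98 and 4.02 FPKM in Sham libraries. Every library of the 3 MCAO groups was above 24 FPKM and every Sham library below 5, and the 4 MCAO values lay close together. Cenpa rose by 4.75 ± 0.40 in MCAO (adjusted p = 1.27e-08, limma), the largest difference among the 37 members in this comparison. The Aurora kinases Aurka and Aurkb act at spindle poles and at centromeres. Both genes passed the minimum through the MCAO groups alone, so their calls are a description. Aurka had 1.21, 9.83, 3.97 and 0.05 FPKM in MCAO+AS-exos and 5.28, 1.67, 0.96 and 2.83 FPKM in MCAO+Ctrl-exos libraries. It had 12.1, 3.65, 12.5 and 5.14 FPKM in MCAO, against 0, 0.42, 0 and 0 FPKM in Sham libraries. MCAO did not overlap Sham, MCAO+AS-exos replicate 4 did, and Aurka rose by 2.95 ± 0.58 in MCAO (adjusted p = 0.000505, limma). Aurkb had 2.61, 7.28, 5.87 and 0.81 FPKM in MCAO+AS-exos, 8.93, 0, 0.23 and 0.73 FPKM in MCAO+Ctrl-exos and 10.6, 4.55, 16.2 and 0.25 FPKM in MCAO libraries. In Sham it was listed at 0 in all 4 libraries (adjusted p = 0.00896 for MCAO, limma), and MCAO+Ctrl-exos replicate 1 was the single library of its group above 1 FPKM.

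Ccna2 encodes cyclin A2, which acts from S phase into mitosis. Ccna2 had 3.2, 7.81, 4.03 and 2.54 FPKM in MCAO+AS-exos and 1.86, 7.5, 0.54 and 3.33 FPKM in MCAO+Ctrl-exos libraries. It had 9.04, 8.04, 6 and 2.14 FPKM in MCAO, against 1.52, 0.31, 0.14 and 0.75 FPKM in Sham libraries. Ccna2 rose by 2.06 ± 0.51 in MCAO without overlap with Sham (adjusted p = 0.00324, limma), and its exons overlap Exosc9 on the other strand. Birc5 encodes survivin, a partner of Aurkb in the chromosomal passenger complex. Birc5 had 17.5, 36.8, 14.5 and 1.61 FPKM in MCAO+AS-exos and 30.4, 68.6, 9.01 and 35.7 FPKM in MCAO+Ctrl-exos libraries. It had 66.3, 22.8, 11.8 and 0.17 FPKM in MCAO, against 0.12, 0.06, 0.19 and 1.89 FPKM in Sham libraries. The MCAO values ran from 0.17 to 66.3 FPKM, and replicate 4 lay among the Sham values. Birc5 rose by 3.13 ± 0.95 in MCAO (adjusted p = 0.0131, limma). Top2a had 0.67, 2.73, 1.4 and 1.17 FPKM in MCAO+AS-exos and 6.85, 5.78, 0.24 and 6.23 FPKM in MCAO+Ctrl-exos libraries. It had 10.1, 6.39, 6.72 and 0.41 FPKM in MCAO, against 0.02, 0, 0 and 0.02 FPKM in Sham libraries. Top2a, whose promoter window holds a CHR and CCAAT boxes, was at or near 0 in Sham, low in MCAO replicate 4 and in MCAO+Ctrl-exos replicate 3, and rose by 2.44 ± 0.61 in MCAO (adjusted p = 0.0034, limma). It passed the minimum through the MCAO groups alone, so its call is a description.

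The mitosis members described next stood at low levels apart from Stmn1. Among them, Cdk1 and Stmn1 had 1 FPKM or more in a Sham library. The others passed the minimum through the MCAO groups alone, so their rises are a description. Mki67, whose protein Ki-67 coats mitotic chromosomes and is used to stain dividing cells, averaged 1.27 ± 0.312 FPKM in MCAO+AS-exos, 4.29 ± 2.91 FPKM in MCAO+Ctrl-exos and 4.89 ± 4.18 FPKM in MCAO, against 0.287 ± 0.392 FPKM in Sham (SD, n = 4 each). It rose by 1.82 ± 0.59 in MCAO (adjusted p = 0.0197, limma), with MCAO replicate 4 at 0.19 FPKM. The B cyclin genes Ccnb1 and Ccnb2 rose by 2.28 ± 0.72 and 2.82 ± 0.91, and Cdk1, their kinase, by 1.48 ± 0.56. Ube2c, the APC/C enzyme that starts ubiquitin chains, rose by 3.15 ± 0.84. Cdc20, Bub1b, a spindle checkpoint kinase homolog, and Cenpe, a kinetochore motor, were listed at 0 in all 4 Sham libraries and passed in MCAO (limma adjusted p = 0.00731, 0.0137 and 0.0386). In MCAO libraries Cdc20 had 7.85, 4.57, 12.6 and 0.07 FPKM, with replicate 4 near Sham. Bub1b had 1.21, 2.42, 0.82 and 2.23 FPKM and Cenpe 2.35, 0.68, 4.3 and 0.45 FPKM in the same libraries, where replicate 4 was the second highest for Bub1b and the lowest for Cenpe. Stmn1, whose protein destabilises microtubules, and Tpx2, which activates Aurka on the spindle, rose by 1.97 ± 0.52 and 1.85 ± 0.56. Plk1, a mitotic kinase, Nusap1, which bundles spindle microtubules, and Prc1, which holds the midzone for cytokinesis, did not pass (limma adjusted p = 0.0601, 0.056 and 0.168). Plk1 had 6.88, 2.62, 9.83 and 0.33 FPKM in MCAO, against 0.49, 0.42, 0.63 and 0.03 FPKM in Sham libraries. Nusap1 had 9.26, 1.97, 1.05 and 0 FPKM in MCAO and was listed at 0 in all 4 Sham libraries. Prc1 had 1.67, 3.96, 0.83 and 0 FPKM in MCAO, against 0, 0.03, 0 and 0.02 FPKM in Sham libraries. Replicate 4 of MCAO was at or near 0 for these 3 genes. Values of Ube2c, Cdc20, Nusap1 and Prc1 are uncertain because their exons overlap those of Tnnc2, Elovl1, Oip5 and Rccd1 in turn, and those of Ccnb1 and Ccnb2 because annotated pseudogenes may share their reads. The same holds for Tk1 with Afmid, Cdk4 with Tspan31, Cdk2 with Pmel and the pseudogenes of Pcna.

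Hmgb2 encodes a DNA-bending chromatin protein that is abundant in dividing cells. Hmgb2 had 51.6, 75.8, 72.1 and 49.97 FPKM in MCAO+AS-exos and 56.3, 57, 39.9 and 48.1 FPKM in MCAO+Ctrl-exos libraries. It had 66, 58.1, 80.7 and 79 FPKM in MCAO, against 176, 157, 195 and 125 FPKM in Sham libraries. Each library after MCAO was below each Sham library, and Hmgb2 fell by 1.18 ± 0.23 in MCAO against Sham (adjusted p = 0.000466, limma). Ube2s encodes the APC/C enzyme that extends ubiquitin chains. Ube2s had 20.7, 25.1, 12.7 and 62.2 FPKM in MCAO+AS-exos and 137, 128, 99.6 and 160.1 FPKM in MCAO+Ctrl-exos libraries. It had 38.2, 33.5, 65.7 and 69.7 FPKM in MCAO, against 30.8, 38.6, 55.4 and 40.4 FPKM in Sham libraries. The 4 MCAO+Ctrl-exos libraries stood above all others, MCAO+AS-exos replicates 1 to 3 stood lowest, and MCAO overlapped Sham (0.28 ± 0.38, adjusted p = 0.579, limma).

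Of the 4 tested members that act at entry into the cycle, 1 rose in MCAO (Ccnd2), and Cdk4, Cdk2 and Ccnd1 did not pass. Ccnd2 was below 1 FPKM in every Sham library and passed the minimum through the MCAO groups alone, so its call is a description. The D-type cyclin genes Ccnd1 and Ccnd2 stood on opposite sides. Ccnd2 had 3.95, 3.96, 6.53 and 9.76 FPKM in MCAO+AS-exos and 2.31, 7.27, 5.41 and 1.64 FPKM in MCAO+Ctrl-exos libraries. It had 7.47, 5.66, 2.82 and 13 FPKM in MCAO, against 0, 0.02, 0.01 and 0 FPKM in Sham libraries. Sham was at or near 0 and no library of an MCAO group overlapped it, and Ccnd2 rose by 2.88 ± 0.45 in MCAO (adjusted p = 4.13e-05, limma). Ccnd1 had 2.99, 3.06, 5.88 and 10.5 FPKM in MCAO+AS-exos and 8.03, 7.32, 6.35 and 4.64 FPKM in MCAO+Ctrl-exos libraries. It had 12.2, 9.52, 6.93 and 14.7 FPKM in MCAO, against 13.7, 25, 13.5 and 26.1 FPKM in Sham libraries. Ccnd1 was -0.78 ± 0.38 in MCAO minus Sham, with overlap (adjusted p = 0.115, limma). Cdk4 is the kinase partner of both. Cdk4 had 143, 159, 175 and 101 FPKM in MCAO+AS-exos and 56.2, 67.6, 112 and 79.2 FPKM in MCAO+Ctrl-exos libraries. It had 157, 121, 111 and 64.3 FPKM in MCAO, against 54.7, 94, 63.9 and 59.3 FPKM in Sham libraries. MCAO replicate 4 lay within the Sham range (0.69 ± 0.29, adjusted p = 0.0664, limma), and MCAO+AS-exos stood above Sham in every library. Cdk2 is the kinase of the E and A cyclins. Cdk2 had 8.72, 7.47, 11.8 and 10.1 FPKM in MCAO+AS-exos and 11.2, 7.45, 4.89 and 9.64 FPKM in MCAO+Ctrl-exos libraries. It had 13.7, 9.42, 12.1 and 9.52 FPKM in MCAO, against 10.2, 11.3, 5.11 and 2.49 FPKM in Sham libraries. The 4 groups overlapped (MCAO minus Sham 0.71 ± 0.39, adjusted p = 0.151, limma).

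**Figure D3:**
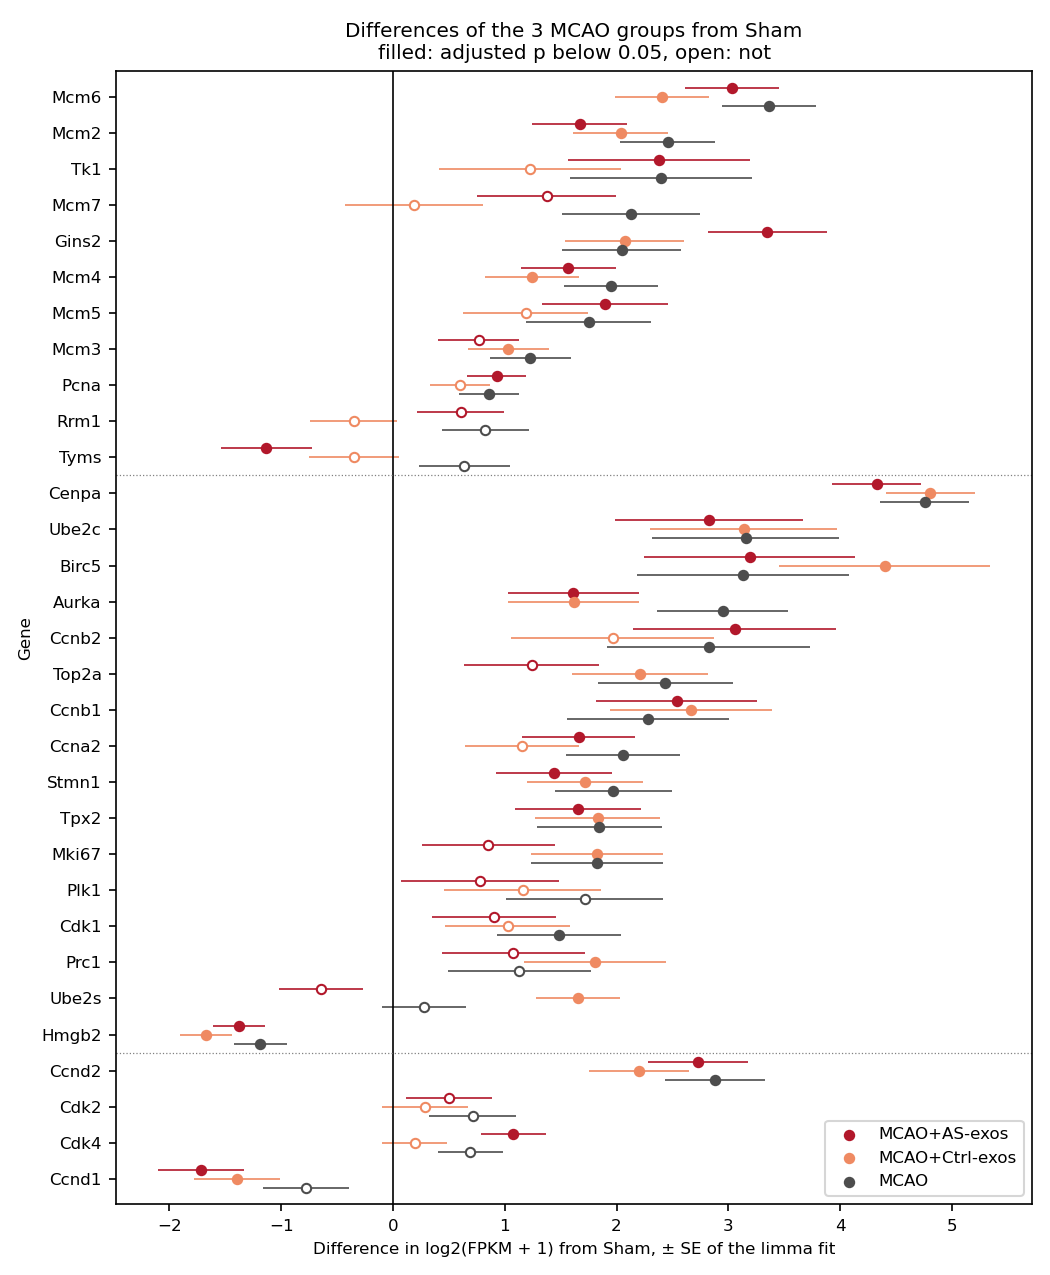
Difference from Sham in log2(FPKM + 1), with the SE of the limma fit as bars, of the 31 tested members not listed at 0 in all Sham libraries, for MCAO+AS-exos, MCAO+Ctrl-exos and MCAO (n = 4 libraries a group); filled points passed an adjusted p of 0.05. Cenpa lies farthest to the right in each of the 3 groups, at 4.32, 4.81 and 4.75, and Hmgb2 lies left of 0 in each.

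Both exosome groups were set against the same 4 Sham libraries as MCAO, so these comparisons are not independent of the one above. In MCAO+Ctrl-exos, 20 of 37 members rose, 2 fell (Hmgb2 and Ccnd1) and 15 did not pass, against 22.1% of all tested genes that rose and 16.6% that fell. Groups did not overlap for 19 members in the upward direction and 2 in the downward direction, against 19.4% and 14% of all tested genes. The 19 include members kept through the MCAO groups alone, for which the minimum favoured this. The median was 1.41, against 0.12 over all genes, and 1.62 without the 6 members listed at 0 in Sham. Of the 20 members with 1 FPKM or more in a Sham library, 8 rose and 2 fell. No share over all genes of that kind was counted. Of the 12 replication genes 6 rose (Mcm2, Mcm3, Mcm4, Mcm6, Rrm2 and Gins2). Mcm2 and Rrm2 passed the minimum through the MCAO groups alone, and 4 of the other 10 rose. Of the 21 mitosis genes 13 rose. Since 14 of the 21 passed the minimum through the MCAO groups alone, that count is a description. Of the other 7, 4 rose (Birc5, Ube2s, Cenpa and Stmn1) and Hmgb2 fell. Cenpa was higher by 4.81 ± 0.40, Birc5 by 4.40 ± 0.95 and Ube2s by 1.66 ± 0.38 (limma adjusted p = 1.07e-08, 0.00104 and 0.00161). Ccnd1 fell by 1.40 ± 0.38 and Hmgb2 by 1.67 ± 0.23 (limma adjusted p = 0.00697 and 1.05e-05). Among the genes that did not pass, Mcm7 differed from Sham by 0.19 ± 0.62 and Rrm1 by -0.35 ± 0.39.

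In MCAO+AS-exos, 22 of 37 members rose against Sham, 3 fell (Hmgb2, Ccnd1 and Tyms) and 12 did not pass, against 20.7% of all tested genes that rose and 19.1% that fell. Groups did not overlap for 22 members upward and 3 downward, against 19.4% and 17.1% of all tested genes. The 22 also include members kept through the MCAO groups alone. The median was 1.54, against 0.03 over all genes, and 1.44 without the 6 members listed at 0 in Sham. Of the 20 members with 1 FPKM or more in a Sham library, 11 rose and 3 fell, and again no matching share over all genes was counted. The count of 22 became 14 without MCAO+AS-exos replicate 2. Of the replication genes 8 of 12 rose and Tyms fell by 1.13 ± 0.40 (adjusted p = 0.0322, limma). Mcm2 and Rrm2, kept through the MCAO groups alone, are among the 8, and of the other 10 replication genes 6 rose. Gins2 rose by 3.35 ± 0.53, Mcm6 by 3.03 ± 0.42 and Pcna by 0.93 ± 0.27 (limma adjusted p = 5.13e-05, 9.65e-06 and 0.00966). Of the mitosis genes 12 of 21 rose, Cenpa by 4.32 ± 0.40 and Ccnb2 by 3.06 ± 0.91 among them (limma adjusted p = 5.06e-08 and 0.0115). Ccnb2 is 1 of the 14 that passed the minimum through the MCAO groups alone. Of the other 7, 4 rose (Ccna2, Birc5, Cenpa and Stmn1) and Hmgb2 fell. Mki67 and Top2a did not pass in MCAO+AS-exos, with differences of 0.85 ± 0.59 and 1.24 ± 0.61, nor did Cenpe, which had 0.19, 0.79, 0.18 and 0.43 FPKM. At entry, Cdk4 rose by 1.08 ± 0.29 and Ccnd1 fell by 1.72 ± 0.38 (limma adjusted p = 0.00631 and 0.0015).

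Single libraries differed within groups. The median coefficient of variation over the 4 libraries of a group was 72.9% for the mitosis genes and 36.1% for the replication genes in MCAO+AS-exos, 70.5% and 46.9% in MCAO+Ctrl-exos, and 85.4% and 57.5% in MCAO, and the mitosis genes mostly stood at lower levels. The mean log2(FPKM + 1) of the 21 mitosis genes, in the order of replicate numbers, was 2.10, 3.46, 2.59 and 2.10 in MCAO+AS-exos, 3.57, 3.30, 1.76 and 2.61 in MCAO+Ctrl-exos, 3.89, 2.98, 3.55 and 1.67 in MCAO and 0.94, 0.89, 1.06 and 1.24 in Sham libraries. Part of the gap to Sham follows from the minimum, since 14 of the 21 genes were kept through the MCAO groups alone. Over the 7 genes with 1 FPKM or more in a Sham library, the mean level was 4.09, 4.92, 4.11 and 3.91 in MCAO+AS-exos, 5.02, 5.17, 3.85 and 5.05 in MCAO+Ctrl-exos, 5.35, 4.69, 4.81 and 3.90 in MCAO and 2.64, 2.48, 2.93 and 3.56 in Sham libraries. In both sets MCAO replicate 4 and MCAO+Ctrl-exos replicate 3 were the lowest of their groups. MCAO replicate 4 was the lowest of its group for 16 of the 21 genes, MCAO+Ctrl-exos replicate 3 for 17, and MCAO+AS-exos replicate 2 was the highest of its group for 18. The number of the 21 mitosis genes at 1 FPKM or more was 14, 20, 19 and 14 in MCAO+AS-exos, 20, 20, 9 and 14 in MCAO+Ctrl-exos and 21, 19, 19 and 8 in MCAO libraries. The mean level of the 12 replication genes was 2.95, 3.58, 3.54 and 3.03 in MCAO+AS-exos, 2.55, 3.12, 2.70 and 2.88 in MCAO+Ctrl-exos, 4.58, 3.44, 3.33 and 3.10 in MCAO and 1.97, 1.58, 1.48 and 1.91 in Sham libraries. Here MCAO replicate 1 stood out as the highest, for 10 of the 12 genes within its group, and MCAO replicate 4 was the lowest of its group for 7 of the 12. In the same libraries, the neutrophil markers summed to 9873 FPKM in MCAO replicate 4, against 1694 to 5676 FPKM in the other MCAO libraries, and to 1823 FPKM in MCAO+Ctrl-exos replicate 3, against 2167 to 3633 FPKM in the others of that group. The microglia markers summed to 1225 and 1319.8 FPKM in these 2 libraries, against 1164 to 1975 FPKM in the other MCAO libraries and 1326 to 1383 FPKM in the other MCAO+Ctrl-exos libraries. The part of these markers in the low mitosis levels was not tested. Without both libraries, a choice made after their values were seen, 32 members rose in MCAO against Sham and 21 in MCAO+Ctrl-exos against Sham. Over all genes tested without them, 22.6% and 20.4% rose. Both were the lowest of their groups for the mitosis genes, so a higher count was built into the choice and supports nothing.

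**Figure D4:**
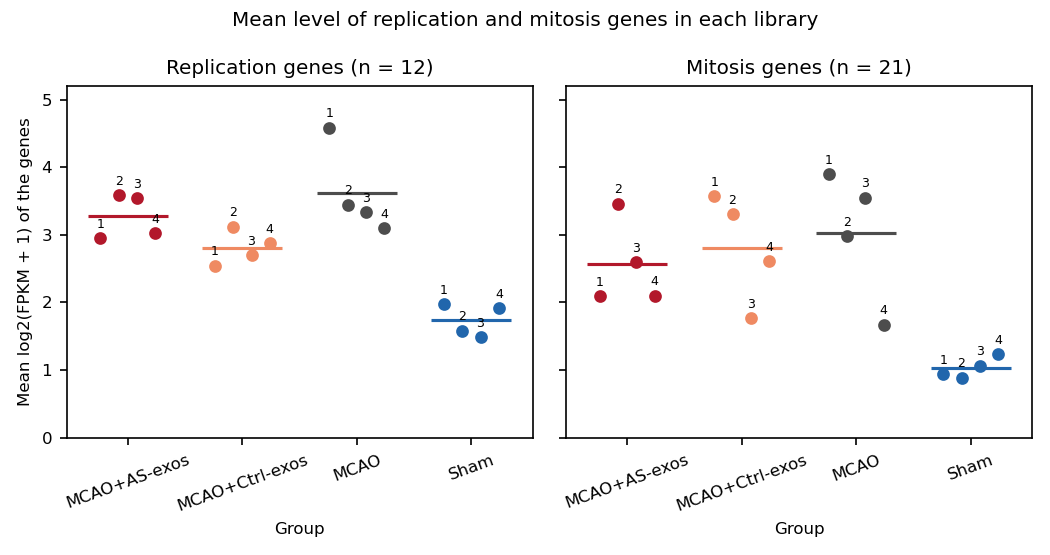
Mean log2(FPKM + 1) of the 12 replication genes (left) and the 21 mitosis genes (right) in each library; points are libraries with their replicate numbers and lines are group means. Mitosis levels in MCAO range from 1.67 in replicate 4 to 3.89 in replicate 1, and Sham libraries lie at 1.24 or below. In Sham 14 of the 21 genes were below 1 FPKM, and these were kept through the MCAO groups alone.

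The 3 comparisons among the MCAO groups address what the exosomes changed, and each pair of them shares a group. Against MCAO, MCAO+Ctrl-exos had 0 of 37 members called in either direction, against 0.0461% of all tested genes that rose and 0.0277% that fell. With each library left out in turn these shares ran from 0% to 0.659% and from 0.0185% to 0.167%, both highest without MCAO+Ctrl-exos replicate 1. The median difference was -0.49, against -0.14 over all genes. At an unadjusted limma p below 0.05 stood 8 of the 37 members, against 1181 of the 10846 tested genes. Groups did not overlap for 1 member upward (Ube2s) and 1 downward (Hmgb2), against 1.99% and 3.99% of all tested genes. Ube2s was higher by 1.37 ± 0.38 and did not pass over all genes (adjusted p = 0.18, limma). Mcm7, at -1.94 ± 0.62, and Rrm1, at -1.18 ± 0.39, had the next smallest p-values and did not pass (limma adjusted p = 0.259 and 0.277). The replication genes had a median of -0.83 and the mitosis genes of -0.23.

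Against MCAO, MCAO+AS-exos had 1 member called lower (Tyms) and 0 higher, against 5.08% of all tested genes that fell and 1.06% that rose. These shares rest on single libraries: without MCAO+AS-exos replicate 2 or 3 they were 0% and 0%, without its replicate 1 0% fell and 0.0185% rose, without any 1 MCAO library 0.242% to 0.855% fell, and without MCAO+AS-exos replicate 4 14.9% fell and 3.9% rose. In a fit of only the 8 libraries 0.166% fell and 0.12% rose. Groups did not overlap for the same 1 member, downward, against 10.1% of all tested genes, and for 0 upward, against 4.29%. The median was -0.40, against -0.17 over all genes. At an unadjusted limma p below 0.05 stood 5 of the 37 members, against 2785 of the 10846 tested genes. Tyms fell by 1.77 ± 0.40 (adjusted p = 0.0263, limma), and each MCAO+AS-exos library was below each MCAO library. Leaving out any of MCAO replicates 1, 2 and 3 or of MCAO+AS-exos replicates 1, 2 and 3 ended the call. With each of the 16 libraries left out in turn, the difference ran from -2.06 to -1.41 and the adjusted p from 0.0124 to 0.118. Quantile scaling and a fit of only the 8 libraries compared also ended it, each with an adjusted p of 0.0553. A processed copy, Tyms-ps, is annotated and its reads may be shared with Tyms. Gins2 stood the other way, at 1.3 ± 0.53 (adjusted p = 0.13, limma), and at 1.80 without MCAO+AS-exos replicate 4 (adjusted p = 0.0187). That library was the lowest of its group for Gins2, so a larger difference was built in. It was the 1 of 16 libraries whose removal gave a call, and 0 of 9 other settings gave 1. Gse1, whose exons overlap those of Gins2, was at -0.33 ± 0.41 in the same comparison (adjusted p = 0.66, limma). Aurka, Ube2s and Ccnd1 were at -1.33 ± 0.58, -0.93 ± 0.38 and -0.94 ± 0.38, and none of these 3 passed (limma adjusted p = 0.157, 0.128 and 0.132). Mki67 was at -0.97 ± 0.59 and Top2a at -1.20 ± 0.61 (limma adjusted p = 0.312 and 0.218). Their MCAO+AS-exos libraries had at most 1.58 and 2.73 FPKM and 3 of 4 MCAO libraries of each gene were above those values, while MCAO replicate 4 was below them.

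Between the exosome groups, MCAO+AS-exos had 1 member lower than MCAO+Ctrl-exos (Ube2s) and 0 higher. Over all tested genes 0.129% fell and 0.157% rose. With each library left out in turn these shares ran from 0% to 8.49% and from 0.00926% to 3.52%, both highest without MCAO+AS-exos replicate 4. Groups did not overlap for the same 1 member, downward, against 5.02% of all tested genes, and for 0 upward, against 5.19%. At an unadjusted limma p below 0.05 stood 4 of the 37 members, against 2127 of the 10846 tested genes. Ube2s averaged 30.2 ± 22 FPKM in MCAO+AS-exos and 131 ± 25 FPKM in MCAO+Ctrl-exos (SD, n = 4 each), and fell by 2.30 ± 0.38 (adjusted p = 0.0223, limma). The call was lost in a fit of only the 8 libraries compared (adjusted p = 0.0516) and on leaving out MCAO+Ctrl-exos replicate 2 or 4 or MCAO+AS-exos replicate 1, 2 or 3 (adjusted p of 0.0501 to 0.13). Without MCAO+AS-exos replicate 4, its highest library, the difference was -2.72 (adjusted p = 0.000124). Exons of Ube2s overlap those of Rpl28, a ribosomal protein gene on the other strand, and no source used here says whether strand was used in counting. Rpl28 had 864, 766, 682 and 1803 FPKM in MCAO+AS-exos and 1209, 1869, 1523 and 1623 FPKM in MCAO+Ctrl-exos libraries. It had 1227, 1071, 1244 and 1636 FPKM in MCAO, against 311, 518, 301 and 644 FPKM in Sham libraries. MCAO+AS-exos replicate 4 was the highest of its group for both genes, and Rpl28 was at -0.69 ± 0.29 between the exosome groups (adjusted p = 0.198, limma), so the value of Ube2s is uncertain.

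The other members did not pass between the exosome groups. Cdk4 was at 0.88 ± 0.29, Gins2 at 1.28 ± 0.53 and Rrm1 at 0.96 ± 0.39 in MCAO+AS-exos minus MCAO+Ctrl-exos (limma adjusted p = 0.111, 0.197 and 0.185). Mki67 and Top2a, markers of dividing cells, were at -0.97 ± 0.59 and -0.97 ± 0.61 (limma adjusted p = 0.369 and 0.383). The replication genes had a median of 0.51 and the mitosis genes of -0.18, against -0.08 over all genes. Over all 37 members the median was -0.00, and 0.16 with quantile scaling. Without MCAO+AS-exos replicate 4, whose Gins2 and Cdk4 were the lowest of their group, Gins2 stood at 1.77 and Cdk4 at 1.04 (limma adjusted p = 0.0277 and 0.0311). Each gene passed in this 1 of the 16 fits that left a library out, and in 0 of 9 other settings. Leaving out the lowest library built in a larger difference, so these 2 calls support nothing. In MCAO+AS-exos replicate 4 the monocyte markers summed to 1787 FPKM, against 3927 to 5429 FPKM in the others of its group, and the neutrophil markers to 3488 FPKM, against 6304 to 7839.8 FPKM. The part of these markers in the values of Gins2 and Cdk4 was not tested.

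**Figure D5:**
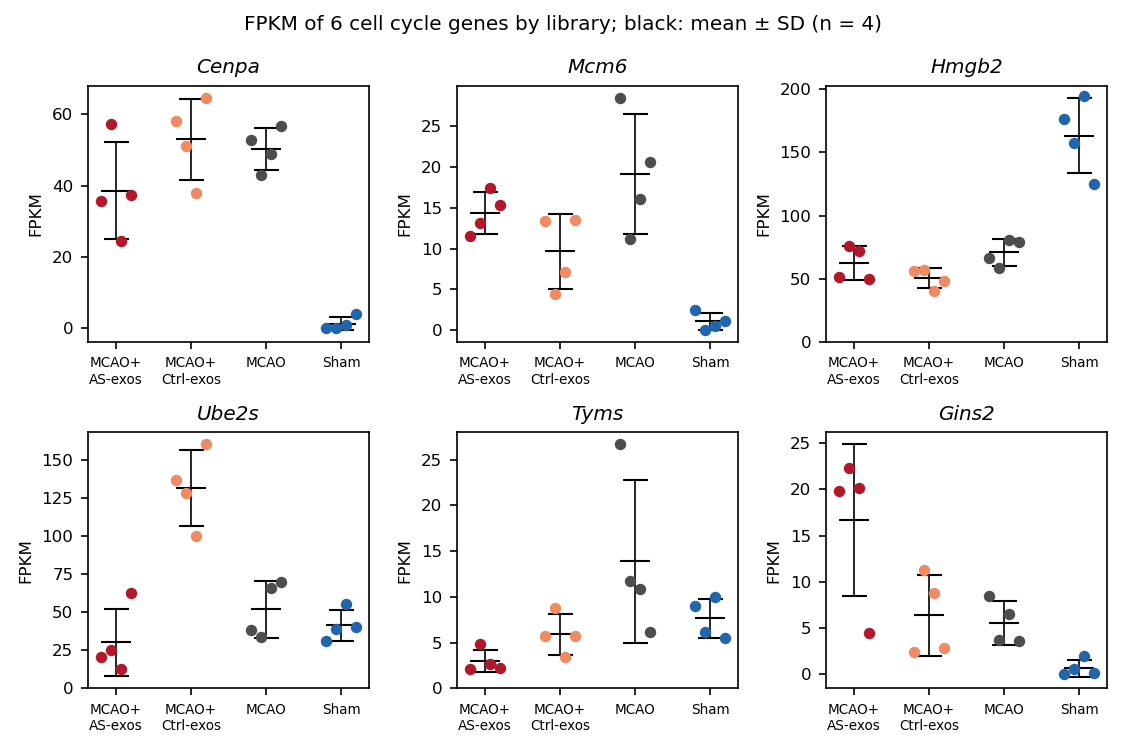
FPKM of 6 members in each library (coloured points), with mean and SD of the 4 libraries of a group in black. Ube2s lies at 99.6 FPKM or above in MCAO+Ctrl-exos alone, and Gins2 at 19.9 FPKM or above in 3 MCAO+AS-exos libraries.

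Other genes of the pathway were taken from 8 lists that hold no member of the module. Of their 142 tested genes, 45 rose (31.7%) and 7 fell (4.93%) in MCAO against Sham, against 24.5% and 14.8% of all tested genes. Of the 142, 33 were below 1 FPKM in every Sham library and passed the minimum through the MCAO groups alone. Of the other 109, 24 rose (22%) and 7 fell (6.42%). All tested genes were not split in this way. The 22%, and the split shares of single lists below, thus have no matching share. In MCAO against Sham, 5 of 18 tested E2F, RB and MuvB regulators rose (27.8%, near the 24.5% of all genes) and 1 fell, with a median of 0.44. Of the 15 with 1 FPKM or more in a Sham library 3 rose (20%). E2f2 and E2f1, activating E2F factors, rose by 2.34 ± 0.38 and 1.74 ± 0.42, and Tfdp1, their partner, by 1.41 ± 0.31 (limma adjusted p = 6e-05, 0.00257 and 0.00112). Of 11 other cyclins and kinases 4 rose (36.4%, against 24.5% of all genes). Of the 8 with 1 FPKM or more in a Sham library 2 rose (25%). Ccnd3 rose by 2.08 ± 0.58 and Cdc25b, whose phosphatase activates Cdk1, by 2.03 ± 0.45. Wee1, whose kinase holds Cdk1 inactive, rose by 1.99 ± 0.46 from a Sham mean of 0.21 FPKM. E2f2, at a Sham mean of 0.23 FPKM, and Wee1 passed the minimum through the MCAO groups alone, so their calls are a description. Of 12 inhibitors and genes of exit from the cycle 3 rose (25%) and 2 fell (16.7%), with a median of 0.87. Cdkn1a, the gene of the inhibitor p21, rose by 2.94 ± 0.34 and Gadd45a by 4.15 ± 0.40, while the antiproliferative gene Btg2 fell by 2.50 ± 0.26 (limma adjusted p = 8.35e-07, 1e-07 and 2.51e-07).

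Of 15 genes of origin licensing and firing 2 rose (13.3%, against 24.5% of all genes), Cdt1 by 2.31 ± 0.58 and Gmnn by 2.05 ± 0.73, and 1 fell, Orc5 by 1.54 ± 0.38, with a median of 0.55. Cdt1 loads the MCM helicase and geminin, the product of Gmnn, blocks it. Of 32 genes of polymerases and the fork 10 rose (31.2%) and 1 fell, with a median of 0.77, and of the 26 with 1 FPKM or more in a Sham library 4 rose (15.4%). The maintenance methylase gene Dnmt1 rose by 2.78 ± 0.42 and the DNA ligase gene Lig1 by 2.68 ± 0.50 (limma adjusted p = 2.99e-05 and 0.000272). Uhrf1, which guides Dnmt1 to replicated DNA, had 10.4, 2.55, 1.11 and 3.18 FPKM in MCAO and was listed at 0 in all 4 Sham libraries (adjusted p = 0.000601, limma). Of 19 kinetochore and checkpoint genes 7 rose (36.8%) and 0 fell, with a median of 1.35, and of the 11 with 1 FPKM or more in a Sham library 2 rose (18.2%). Of 16 spindle and cytokinesis genes 7 rose (43.8%) and 0 fell, with a median of 1.12, and of the 5 with 1 FPKM or more in a Sham library 2 rose. Nuf2 of the kinetochore had 13.2, 6.25, 2.52 and 0.61 FPKM in MCAO and was listed at 0 in all 4 Sham libraries (adjusted p = 0.00344, limma). Racgap1 of the cleavage furrow rose by 2.45 ± 0.56 from a Sham mean of 0.005 FPKM (adjusted p = 0.00166, limma). Of 19 genes of chromosome condensation and separation 7 rose (36.8%) and 2 fell (10.5%), with a median of 0.39. Of the 17 with 1 FPKM or more in a Sham library 6 rose (35.3%) and 2 fell (11.8%). Ncapg2, a condensin subunit, rose by 4.50 ± 0.32 from a Sham mean of 0.015 FPKM (adjusted p = 9.18e-10, limma). Lmnb1, the gene of lamin B1, rose by 3.91 ± 0.39, while Pttg1, the gene of securin, fell by 1.55 ± 0.30 (limma adjusted p = 1.58e-07 and 0.000431). Lig1, at a Sham mean of 0.375 FPKM, Uhrf1, Nuf2, Racgap1 and Ncapg2 passed the minimum through the MCAO groups alone, so their calls are a description.

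In the other comparisons with Sham, which share its libraries, the counts of the 8 lists ran from 1 to 8 higher and 0 to 4 lower in MCAO+Ctrl-exos and from 2 to 7 higher and 0 to 5 lower in MCAO+AS-exos. Over the 142 genes, 21.8% rose and 10.6% fell in MCAO+Ctrl-exos, against 22.1% and 16.6% of all genes, and 26.1% rose and 9.86% fell in MCAO+AS-exos, against 20.7% and 19.1% of all genes. MCAO+Ctrl-exos against MCAO and MCAO+AS-exos against MCAO+Ctrl-exos had 0 genes of the 8 lists called in limma. In MCAO+AS-exos against MCAO, 0 rose and 5 of 142 fell (3.52%, against 5.08% of all tested genes): the inhibitors Btg1 and Ccng2, the kinetochore genes Spc24 and Incenp, and Dnmt1. Spc24 fell by 2.02 ± 0.40 and Dnmt1 by 1.56 ± 0.42 (limma adjusted p = 0.0197 and 0.0396).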

How the data were processed

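RNA of 16 libraries was sequenced. The authors deposited 1 table of FPKM values with gene symbols, and 1 file per library that holds the same values. The unit was taken from the values, since no source used here states it. The submitters' processing notes name HISAT2, Bowtie2, RSEM 1.3.1 and GRCm39.p6, with no roles. Counting by strand, depth and precision from counts are not given in the sources used here, so no counting interval is printed.

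Values were taken as log2(FPKM + 1) and fitted over all 4 groups with limma 3.58.1 in R 4.3.3 (trend and robust), with 2-sided tests. Genes at 1 FPKM or more in at least 4 libraries were tested, 10846 in all, and p-values were adjusted by Benjamini and Hochberg over all of them, with a threshold of 0.05. An adjusted p in the text is of this test, and a log2 difference is followed by its SE. The procedure was tested on simulated data for MCAO against Sham over 10846 genes. Called were 67 of 100 genes changed by 2 on the log2 scale and 100 of 100 changed by 4, with 9 false calls. Recovery of members near 0 in Sham, and with more genes changed, was not tested.

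Alternatives were a pseudocount of 0.1, no minimum, a minimum of 5 FPKM, quantile scaling, equal totals, limma without trend, the replicate number as a block, fits of only the 8 libraries compared, removal of length and GC trends, and leaving libraries out. Values in every library were given, in each role class, for the 4 members with the smallest p in MCAO against Sham, the 2 with the largest difference in each other comparison, the member with the highest mean, and members called among the MCAO groups. In each pathway list up to 3 genes with the smallest p in MCAO against Sham may be named. Others are given by group or by count. The members, lists, motifs and tests were chosen with earlier results of these data known. Exon overlaps come from GENCODE M21 and promoters from RefSeq on GRCm38.p6, not the build of the submitters.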

Additional observations from a re-analysis of the deposited data

Results flagged for a closer look

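In 6 of 130 groups of 4 values of a member, 1 library stood far from the other 3 by Dixon's criterion, which chance alone meets in about 1 in 20 groups. None of 12 mean levels of the role classes did. Gins2 was at 4.48 FPKM in MCAO+AS-exos replicate 4, against 19.87 to 22.26 FPKM in the others of its group. Top2a was at 0.24 FPKM in MCAO+Ctrl-exos replicate 3, against 5.78 to 6.85 FPKM. Mcm7 was at 7.13 FPKM in MCAO+Ctrl-exos replicate 2, against 0.52 to 0.92 FPKM. In Sham, Birc5 was at 1.89 FPKM in replicate 4, against 0.06 to 0.19 FPKM, and Mcm5 at 2.3 FPKM in replicate 4, against 0 in the others. Tk1 was at 9.11 FPKM in Sham replicate 1, against 0 to 0.31 FPKM.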

How the results depend on the processing

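Over the 37 members, 6 comparisons and all alternatives there were 5837 values. Of these, 5631 kept their side of the threshold, 145 were no longer past it and 61 were newly past it. Among values called in either fit 0 changed sign, and changes of sign among values called in neither were not counted. The number of members lower in MCAO against Sham was 2 with quantile scaling and with length and GC trends removed, in place of 1. In MCAO+Ctrl-exos against MCAO, 1 member was lower without a minimum, and 1 was higher without both MCAO+AS-exos replicate 4 and MCAO+Ctrl-exos replicate 1, in place of 0. In MCAO+AS-exos against MCAO, in place of 1, the number lower was 2 without a minimum, 0 with quantile scaling, 0 in a fit of only the 8 libraries, 3 without both MCAO+AS-exos replicate 4 and MCAO+Ctrl-exos replicate 1 (with 1 higher, in place of 0) and 2 without both MCAO replicate 4 and MCAO+Ctrl-exos replicate 3. Without these 2 libraries, a choice made after the data were seen, 32 members were higher in MCAO against Sham, against 22.6% of all genes. Since both were the lowest of their groups for the mitosis genes, that count supports nothing. In MCAO+AS-exos against MCAO+Ctrl-exos, 0 were lower in a fit of only the 8 libraries, in place of 1. A fit of 8 libraries has fewer samples, and the other causes were not tested. Leaving out each library in turn gave 17 to 31 higher and 1 to 1 lower in MCAO against Sham, 15 to 21 and 2 to 2 in MCAO+Ctrl-exos against Sham, and 14 to 23 and 2 to 3 in MCAO+AS-exos against Sham. It gave 0 to 0 and 0 to 0 in MCAO+Ctrl-exos against MCAO, 0 to 1 and 0 to 3 in MCAO+AS-exos against MCAO, and 0 to 2 and 0 to 1 in MCAO+AS-exos against MCAO+Ctrl-exos. Scaling moved the median of all genes from 0.12 to -0.05 in MCAO+Ctrl-exos against Sham with quantiles, and from -0.14 to -0.31 in MCAO+Ctrl-exos against MCAO with equal totals, where the members' medians were 1.31 and -0.66.

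No pairing of libraries by replicate number was seen, which does not exclude one. Deviations of same-numbered libraries correlated at -0.148 to 0.0923 over 24 pairs, and 7 of these were best with their own number. With the replicate block, 28 members were higher and 1 lower in MCAO against Sham, 21 and 2 in MCAO+Ctrl-exos against Sham, and 22 and 3 in MCAO+AS-exos against Sham. The limits are 4 libraries a group, an unknown depth and values near 0, where the pseudocount sets the size: with 0.1 in place of 1 the members' median was 3.67 in MCAO against Sham.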
